A study of Danio rerio with 9 samples.

Results

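ZBTB18 is 1 of the 32520 genes for which the authors deposited expression values from zebrafish heads, listed under the Ensembl identifier ENSDARG00000028228, and its levels in all 9 samples are described here. It was selected on these values, because earlier work with the same table had shown a large difference between germ-free and conventionally raised heads, so its own levels are given as a description with no test. The samples were 3 pools from germ-free embryos treated with zebrafish gut metabolites (ZM), 3 pools from germ-free embryos (GF) and 3 pools from conventionally raised embryos (CV), all of the wild-type Tübingen line at the long-pec stage, 2 days after fertilization. Each pool held 5 heads, severed just behind the hindbrain. ZM and GF embryos had both been bathed in gentamicin and washed in hypochlorite during gastrulation, a treatment that the CV embryos did not receive, so the absence of microbes and the sterilization cannot be told apart in a comparison with CV. ZM embryos additionally received a filter-sterilized extract of adult male intestines in phosphate-buffered saline, a mixture in which no single metabolite was isolated. The labels do not say whether the pools of a group came from separate clutches, so the spread between replicates may be partly technical.

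ZBTB18, also known as RP58 or ZNF238, is a transcriptional repressor with a BTB domain, through which proteins of this family bind each other and corepressors, and with zinc fingers that bind DNA. In the mouse it is best known from the developing cerebral cortex, where it is needed for progenitors to leave the cell cycle and for young neurons to differentiate and migrate, and it acts there in part by repressing Id genes and the neuronal genes Neurog2, Neurod1 and Rnd2. In mouse muscle cells it represses Id2 and Id3 during differentiation, and in humans changes in one copy of the gene cause intellectual disability. These roles are background from mammals and were not measured here.

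Expression was given as FPKM, a measure of fragments relative to transcript length and to the mapped total of the sample. The sums of FPKM over all genes were 676251 to 705494 in ZM, 666444 to 704307 in GF and 587431 to 657383 in CV. How many reads stand behind a value is unknown. Differences between groups were taken on log2(FPKM + 1), a scale on which fold changes of weakly expressed genes come out too small. They were compared with those of the 15904 genes whose FPKM averaged at least 1, fitted with limma over all 9 samples in a single model. The heads carried RNA of brain, eye, skin, cartilage and muscle markers in every sample. Of 16 markers of organs behind the head, 9 averaged at least 1 FPKM and were tested, among them the Hox gene hoxa13b. The other 7 were under the limit for testing, among them HOXB13, HOXC11 and HOXC13, which lay near 0 FPKM in every sample. The sum of this list came mainly from insulin (ins), at 33.7 to 83.4 FPKM over the 9 samples, and transferrin (tfa), at 43.5 to 155.9 FPKM, while the liver marker fabp10a lay between 0.141 and 2.90 FPKM and the pancreatic marker ela2l was at or near 0 in replicate 3 of each group. In pooled tissue, fewer cells that express ZBTB18 and less ZBTB18 RNA per cell cannot be told apart.

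ZBTB18 was at a low level in germ-free heads and at a several-fold higher level in the 2 other groups. Its FPKM was 15.4, 14.7 and 8.09 in ZM replicates 1, 2 and 3. It was 2.78, 2.60 and 1.86 in GF replicates 1, 2 and 3. It was 17.0, 16.5 and 17.2 in CV replicates 1, 2 and 3. The groups did not overlap, and the 9 samples ran in the order CV, ZM and GF from the highest to the lowest. GF values were likewise entirely below CV values for 17.7% of the genes tested, and ZM values entirely below CV values for 13.3%. How many genes showed the full order was not computed. The CV and ZM groups were adjacent, with the lowest CV sample 1.07-fold above the highest ZM sample, while the lowest ZM sample lay 2.91-fold above the highest GF sample. The means were 12.7 ± 4.04 FPKM in ZM, 2.41 ± 0.489 FPKM in GF and 16.9 ± 0.355 FPKM in CV (SD, n = 3 each). The gap between ZM and GF was thus larger than the spread within either group, whereas the gap between ZM and CV was close to the SD among the ZM pools.

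**Figure D1:**
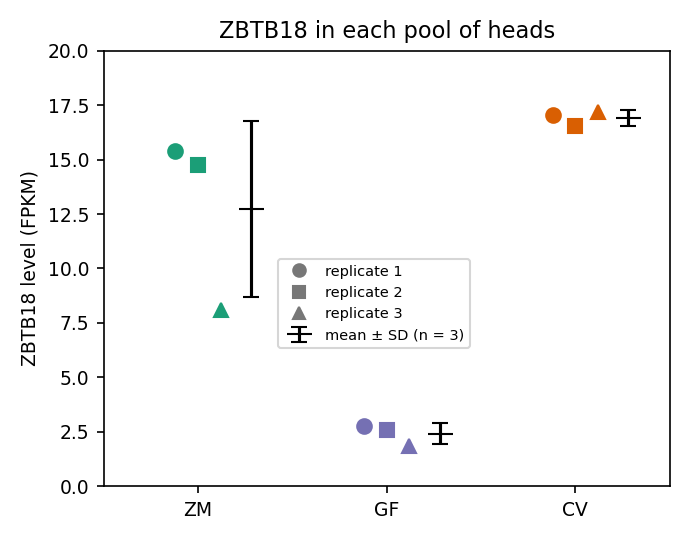
ZBTB18 level in FPKM (vertical axis, from 0) in each pool of 5 heads, by group, with circles, squares and triangles for replicates 1, 2 and 3 and bars for the mean and SD (n = 3). The 3 GF pools sit between 1.86 and 2.78 FPKM, below every ZM and CV pool, and ZM replicate 3 sits at 8.09 FPKM, apart from the 2 other ZM pools.

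On the log2(FPKM + 1) scale the mean of ZBTB18 was 1.76 in GF and 4.16 in CV, a difference of -2.40, and the mean FPKM in GF was 0.142 times that in CV. Of the 15904 genes tested, none had a larger difference between GF and CV in either direction. At an adjusted p under 0.05, 1 gene (0.00629% of those tested) differed between GF and CV, and it was ZBTB18 itself, from which nothing is read since the same values chose it. At a nominal p under 0.05, that is before adjustment for the number of genes, limma gave 18% of the genes tested as lower in GF and 4.7% as higher. These shares depend on the scaling, because rescaling each sample to an equal FPKM sum gave 3331 lower and 179 higher genes and quantile normalization gave 2256 and 1873, against 2858 and 747 without rescaling. Quantile normalization moved the median difference of all genes to 0.12, against 0.02 without it. Among the 5409 tested genes within a factor of 2 of the mean FPKM of ZBTB18, the median difference between GF and CV was 0.06, and the lowest was -2.36 for OTP (ENSDARG00000014201), a homeodomain factor of hypothalamic neurons.

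ZM heads held more ZBTB18 than GF heads in every pairing of samples, as for 10.4% of the genes tested. The mean on the log2(FPKM + 1) scale was 3.73 in ZM and 1.76 in GF, a difference of 1.97, and the mean FPKM in ZM was 5.28 times that in GF. Only 1 of the 15904 genes tested had a more positive difference between ZM and GF, and 3 had a larger one in absolute value. ZM and GF samples with the same replicate number deviated together from their group means across all genes. Samples with different replicate numbers were not compared, so whether the numbers pair the samples was not tested. Taken by replicate number, ZBTB18 was 5.54-fold, 5.67-fold and 4.36-fold higher in ZM than in GF for replicates 1, 2 and 3. At an adjusted p under 0.1, 1 gene (0.00629% of those tested) differed between ZM and GF, again ZBTB18 itself, from which nothing is read since its values chose it. The count was 0 under each of the 3 rescalings, with eBayes without trend, with only the 2 groups compared, with every gene above 0 somewhere tested, and whenever a sample other than ZM replicate 3 was left out. At a nominal p under 0.05, 3.16% of genes were lower and 2.55% higher in ZM.

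ZBTB18 in ZM heads lay nearer to CV than to GF. The means on the log2(FPKM + 1) scale were 3.73 in ZM and 4.16 in CV, a difference of -0.43, which 3363 of the 15904 genes exceeded in the negative direction. Counted from the GF mean to the CV mean on this scale, ZM replicates 1 and 2 lay 94.7% and 92.2% of the way, and ZM replicate 3 lay 59.2% of the way. The difference between ZM and CV was -0.16 when ZM replicate 3 was left out. By limma, no gene differed between ZM and CV at an adjusted p under 0.05 (0% of those tested), while 16.5% were lower and 6.94% higher in ZM at a nominal p under 0.05. Without CV replicate 2 the count at an adjusted p under 0.05 was 2519, of which 1922 were lower and 597 higher in ZM.

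All 3 GF samples lay below all 6 other samples for ZBTB18, as for 907 of the genes tested (5.70%). The highest GF sample and the lowest other sample were 1.27 apart on the log2(FPKM + 1) scale, and no other gene had a wider gap. This too is a description, since ZBTB18 was chosen on these values. The next widest gap was 0.80, for proza (ENSDARG00000037783). In terms of rank within a sample, ZBTB18 was above 74.3%, 73.3% and 57.8% of the tested genes in ZM replicates 1, 2 and 3, above 27.4%, 30.0% and 22.2% in GF replicates 1, 2 and 3, and above 76.2%, 74.2% and 74.8% in CV replicates 1, 2 and 3. Its position among the genes of the same sample, which does not depend on scaling, also separated GF from the 2 other groups. These ranks come from the values on which ZBTB18 was chosen, so nothing further is read from them.

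The spread of ZBTB18 among replicates differed between the groups. Its SD on the log2(FPKM + 1) scale was 0.48 in ZM, 0.22 in GF and 0.03 in CV, where the median SD over all genes tested was 0.19 in ZM, 0.18 in GF and 0.27 in CV. In CV, 109 genes (0.685%) had an SD as small as that of ZBTB18 or smaller. ZBTB18 was chosen on these values, so this rank is a description from which nothing is read. In ZM, 91.5% of genes had an SD no larger than that of ZBTB18, through the low value of replicate 3.

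The close CV values of ZBTB18 were unlike those of most genes with lower levels in GF, because CV replicate 2 lay apart from CV replicates 1 and 3 for many of them. For each gene, the position of CV replicate 2 was expressed as a percentage of the way from the GF mean to the mean of CV replicates 1 and 3, a measure chosen after the data were seen. For ZBTB18 it was 98.0%, a description only, since the gene was chosen on a difference that these CV values enter. For the 2857 other genes lower in GF at a nominal p under 0.05, the median was 37.9%, with quartiles of 28.2% and 51.7%, and 98 of them (3.43%) reached the position of ZBTB18. Among the 945 of these genes with a difference of -1 or lower, the median was 34.5% and 5 reached it. Without CV replicate 2 the difference of ZBTB18 between GF and CV was -2.42, and 2497 genes had an adjusted p under 0.05, against 1 with it.

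**Figure D2:**
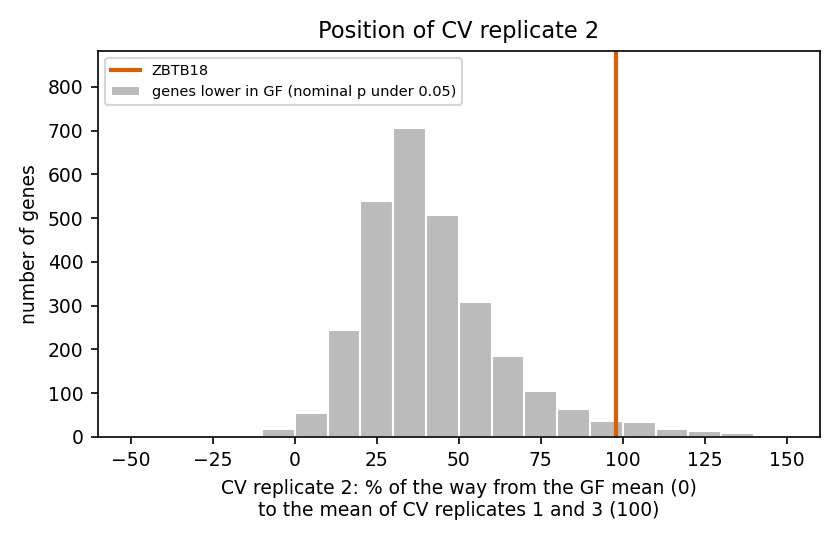
Number of genes (vertical axis) by the position of CV replicate 2 in percent of the way from the GF mean to the mean of CV replicates 1 and 3 (horizontal axis), for the genes lower in GF at a nominal p under 0.05, with 15 genes outside the range drawn. The line marks ZBTB18 at 98.0%, and the median of the other 2857 genes is 37.9%.

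The next question was whether genes that ZBTB18 is known to repress in mammals differed between the groups. A list of 8 such genes was used, all of them above the limit for testing: ID1, ID2, id2b, ID3 and ID4, which encode inhibitors of basic helix-loop-helix factors, neurog1, taken here for its mammalian relative Neurog2, and NEUROD1, which encode proneural and neuronal differentiation factors, and rnd2, which encodes a GTPase of migrating neurons. The mean of each of the 8 was higher in GF heads than in CV heads, where 48.1% of all genes tested had the lower mean in GF. Their median log2 difference was 0.28, against 0.02 over all genes tested and 0.098 over genes averaging at least 5 FPKM. The number with a higher mean was 6 when samples were rescaled to an equal sum. It was 7 after quantile normalization and without GF replicate 1 or CV replicate 1. By the test, 1 of 8 was higher at a nominal p under 0.05 (4.7% of all genes were), 0 were lower, and 0 had an adjusted p under 0.05, the smallest being 0.145 from limma with Benjamini-Hochberg adjustment. The count of 1 was 3 with median-of-ratios rescaling, quantile normalization, the replicate block or without CV replicate 2, was 2 without ZM replicate 3, and was 0 with an equal sum or without GF replicate 1 or CV replicate 3. The number of all 15904 genes higher at this limit moved too, from 747 in the main fit. It was 1400, 1873, 844 and 1819 in the settings that gave 3, in the order named. It was 792 without ZM replicate 3, 179 with an equal sum, 384 without GF replicate 1 and 293 without CV replicate 3. Over the 9 samples all 8 had a negative correlation with ZBTB18, with Pearson's r between -0.82 for ID2 and -0.04 for ID3 (median r -0.51, against 0.01 over all genes tested), values that share the samples on which ZBTB18 was chosen and are therefore a description.

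ID2 (ENSDARG00000055283) was the member at a nominal p under 0.05. Its FPKM was 120.8, 125.0 and 159.2 in ZM, 196.3, 166.4 and 178.6 in GF, and 118.4, 164.3 and 121.5 in CV, replicates 1 to 3 in each. The 3 GF samples lay above all others, though CV replicate 2 came within a few FPKM of the lowest of them. All GF samples exceeded all CV samples for 9.14% of the genes tested. The share with all GF samples above both other groups was not computed. The log2 difference of ID2 was 0.43 in GF against CV (limma, standard error, SE, 0.16, adjusted p = 0.145). The second copy, id2b, had 8.66, 9.80 and 15.3 FPKM in ZM, 14.2, 13.3 and 17.7 FPKM in GF, and 8.59, 13.0 and 11.2 FPKM in CV. For id2b the GF samples were likewise above the CV samples, but ZM replicate 3 lay within the GF range, with a log2 difference of 0.44 in GF against CV (limma, SE 0.22, adjusted p = 0.282). ID4 had 51.8, 48.4 and 50.4 FPKM in ZM, 67.8, 59.5 and 58.8 FPKM in GF, and 47.9, 61.2 and 43.9 FPKM in CV. All GF samples exceeded all ZM samples for ID4, as for 6.17% of the genes tested, while CV replicate 2 lay within the GF range. Without CV replicate 2, ID2 and ID4 had an adjusted p under 0.05 from limma in GF against CV, the smallest being 0.0276. In that fit 295 of the 15904 genes tested were higher in GF at this threshold.

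ID1 and ID3 did not have their highest mean in GF. ID1 averaged 728 ± 101 FPKM in ZM, 656 ± 59.1 FPKM in GF and 572 ± 71.9 FPKM in CV (SD, n = 3 each). ID3 averaged 76.7 ± 2.32 FPKM in ZM, 69.1 ± 5.48 FPKM in GF and 65.0 ± 6.73 FPKM in CV. Both had their highest mean in ZM, and neither passed the test in GF against CV or in ZM against GF. The proneural gene neurog1 varied most among CV samples, with 46.4, 52.5 and 34.1 FPKM in ZM, 55.3, 49.9 and 40.6 FPKM in GF, and 59.9, 27.7 and 20.4 FPKM in CV. Its log2 difference of 0.56 in GF against CV had a SE of 0.33, and CV replicate 1 was the highest of the 9 samples.

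In ZM against GF, the ZM mean was the lower one for 6 of the 8 genes, and for 49.2% of all genes tested. The median log2 difference of the 8 was -0.36, against 0.00 over all genes. At a nominal p under 0.05, 3 were lower in ZM (3.16% of all genes were) and 0 were higher, and 0 had an adjusted p under 0.1, the smallest being 0.848 from limma. The 3 were ID2 with a log2 difference of -0.42, rnd2 with -0.55 and NEUROD1 with -0.69. The FPKM of rnd2 was 3.29, 3.68 and 4.44 in ZM, 5.26, 7.18 and 5.72 in GF, and 4.89, 3.79 and 5.83 in CV. All ZM samples of rnd2 lay below all GF samples, as for 6.17% of the genes tested, and the CV samples overlapped both groups. NEUROD1 had 51.3, 48.2 and 109.0 FPKM in ZM, 131.2, 90.8 and 97.0 FPKM in GF, and 84.1, 109.3 and 115.4 FPKM in CV. Here ZM replicate 3, the ZM pool with the lowest ZBTB18, lay among the GF and CV samples, apart from ZM replicates 1 and 2. This pool also lay apart in genes outside the list, among them the retinal marker VSX1, though not in every gene. Without it 1073 of all 15904 genes were lower in ZM at a nominal p under 0.05, against 502 with every sample, and 662 were higher, against 406. The count of 3 was 0 without ZM replicate 1 and 1 without ZM replicate 2. Over all 15904 genes the number lower in ZM was 183 and 181 in these fits, against 502 with every sample.

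**Figure D3:**
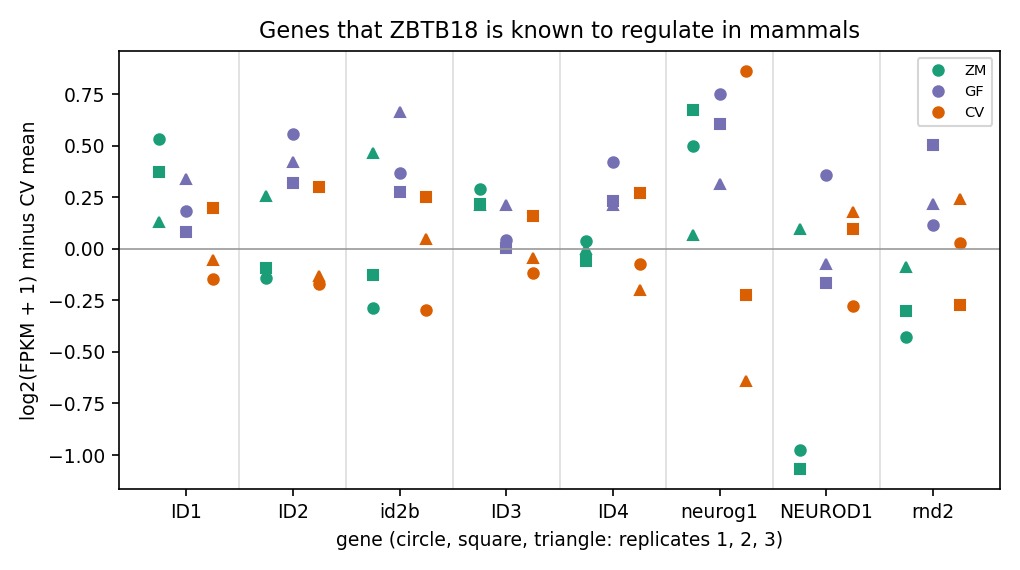
log2(FPKM + 1) minus the mean of the 3 CV samples (vertical axis) for the list of 8 genes drawn from mammalian targets of ZBTB18, where neurog1 stands for its relative Neurog2. The ZM, GF and CV samples are side by side for each gene, with circles, squares and triangles for replicates 1, 2 and 3. All 8 genes have a higher GF mean than CV mean, by 0.04 for NEUROD1 to 0.56 for neurog1, and none passed an adjusted p of 0.05.

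Corepressor partners of ZBTB18 known in mammals were the next group: the DNA methyltransferase DNMT3A, the histone deacetylase HDAC1 and the C-terminal binding proteins CTBP1 and CTBP2. The list matched 6 identifiers, of which 5 were tested. In GF against CV, 3 of these were lower at a nominal p under 0.05 (18% of all genes were), 0 were higher, and 0 had an adjusted p under 0.05. The median log2 difference was -0.71. The copy listed as ctbp1 (ENSDARG00000057007) had 23.6, 27.5 and 19.6 FPKM in ZM, 24.7, 21.0 and 14.9 FPKM in GF, and 65.5, 33.3 and 67.6 FPKM in CV. Both ZM and GF samples of ctbp1 lay below all CV samples, as did ZM samples for 13.3% and GF samples for 17.7% of the genes tested. CV replicate 2 was the lowest of the CV samples. The log2 difference of ctbp1 was -1.38 in GF against CV (limma, SE 0.28, adjusted p = 0.0531). For ctbp2a the FPKM was 5.54, 6.25 and 8.26 in ZM, 8.61, 5.87 and 4.55 in GF, and 16.3, 9.09 and 24.3 in CV, a log2 difference of -1.20 in GF against CV (limma, SE 0.32, adjusted p = 0.0583). The tested DNMT3A copy (ENSDARG00000015566) averaged 2.12 ± 0.640 FPKM in ZM, 2.14 ± 0.926 FPKM in GF and 4.08 ± 1.19 FPKM in CV (SD, n = 3 each), a log2 difference of -0.71 in GF against CV. The log2 differences of these 3 genes in ZM against GF were 0.23 for ctbp1, 0.09 for ctbp2a and 0.02 for DNMT3A, against 1.97 for ZBTB18.

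The other copy, CTBP1 (ENSDARG00000019213), had 9.53, 11.4 and 23.1 FPKM in ZM, 26.5, 20.9 and 20.2 FPKM in GF, and 22.0, 17.4 and 27.2 FPKM in CV. It was lower in ZM replicates 1 and 2 than in every other sample, and ZM replicate 3 again lay among the GF and CV samples. HDAC1 averaged 221 ± 29.9 FPKM in ZM, 204 ± 19.8 FPKM in GF and 196 ± 23.6 FPKM in CV (SD, n = 3 each), differences of about the size of the spread within the groups. Without CV replicate 2, ctbp1 and ctbp2a had an adjusted p under 0.05 in GF against CV, the smallest being 0.00158 from limma, and ctbp1 also had one, at 0.0453, with a pseudocount of 0.1 in place of 1. Of the 15904 genes tested, 2202 were lower in GF at this threshold without CV replicate 2, and 841 with the pseudocount of 0.1.

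Other members of the ZBTB family share the BTB domain and zinc fingers with ZBTB18 but bind different DNA sequences, and include regulators of blood and lymphoid cells such as ZBTB16 and ZBTB7B. The table held 42 identifiers of this family besides ZBTB18. FPKM is scaled to transcript length, so levels can be compared between genes. By mean FPKM, ZBTB18 ranked 3 of 43 in ZM, 17 of 43 in GF and 1 of 43 in CV. The CV mean of the next member, zbtb8b, was 14.2 FPKM, against 16.9 FPKM for ZBTB18. Over all 9 samples the other members with high levels were ZBTB2 (ENSDARG00000028086), with 14.3 ± 0.814 FPKM in ZM, 15.4 ± 1.82 FPKM in GF and 14.0 ± 1.73 FPKM in CV, and ZBTB11, with 12.8 ± 2.21, 14.2 ± 4.23 and 12.6 ± 0.484 FPKM in the same groups (SD, n = 3 each). The means of zbtb8b were 10.3 FPKM in ZM, 11.1 FPKM in GF and 14.2 FPKM in CV, those of ZBTB17 were 10.5, 12.1 and 12.4 FPKM, and those of ZBTB33 were 9.02, 10.2 and 8.99 FPKM. None of these 5 moved between the groups by anything near the several-fold range of ZBTB18. Nothing is read from this contrast, since ZBTB18 was chosen on its large difference.

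Of the 29 other family members that could be tested, 7 were lower in GF heads than in CV heads at a nominal p under 0.05, where 18% of all genes were, and 1 was higher, where 4.7% of all genes were, while 0 had an adjusted p under 0.05. The 7 were ZBTB49, ZBTB14, zbtb39, ZBTB10, ZBTB46, ZBTB7B and ZBTB16, and the 1 higher gene was ZBTB3. After quantile normalization 4 were lower and 4 higher, and the lower count was 4 without GF replicate 2 and 3 without GF replicate 3 or CV replicate 3. Over all 15904 genes, quantile normalization gave 2256 lower and 1873 higher. The number of all genes lower was 2337 without GF replicate 2, 2115 without GF replicate 3 and 2053 without CV replicate 3. The median log2 difference over the 29 was -0.07, but it was 0.12 after quantile normalization and 0.03 without GF replicate 2. The lowest was -0.82 for ZBTB49 (limma, SE 0.24, adjusted p = 0.0729), followed by -0.80 for ZBTB14 and -0.67 for zbtb39. The highest were 0.38 for zbtb25, 0.35 for ZBTB3 and 0.24 for ZBTB1. ZBTB49 had 2.22, 2.36 and 2.38 FPKM in ZM, 1.74, 1.68 and 1.62 FPKM in GF, and 4.61, 2.09 and 5.09 FPKM in CV. ZBTB14 had 6.03, 5.91 and 5.96 FPKM in ZM, 5.76, 5.62 and 4.97 FPKM in GF, and 12.1, 6.11 and 14.2 FPKM in CV. In both genes CV replicate 2 lay with the ZM and GF samples and away from CV replicates 1 and 3, where ZBTB18 had 3 close CV values. Without CV replicate 2, 4 members (ZBTB7B, ZBTB10, ZBTB14 and ZBTB49) had an adjusted p under 0.05 from limma, all lower in GF. In that fit 2202 of the 15904 genes tested were lower at this threshold, so the 4 of 29 are not read as a result about the family.

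In ZM against GF, 2 of the 29 members, zbtb25 and zbtb47a, were lower at a nominal p under 0.05 (3.16% of all genes were), 0 were higher (2.55% of all genes were), and 0 had an adjusted p under 0.1, the smallest being 0.848 from limma. With the replicate number as a block, 1 of the 29 was lower at a nominal p under 0.05 (580 of the 15904 genes tested were). The ZM mean was the higher one for 12 of the 29, where 49.2% of all genes tested had the lower mean in ZM. In humans the nearest relative of ZBTB18 is ZBTB42, a gene of muscle. Zebrafish zbtb42 was under the limit for testing, at 0.450, 0.304 and 0.168 FPKM in ZM, 0.524, 0.297 and 0.142 FPKM in GF, and 0.275, 0.625 and 0.685 FPKM in CV. Its samples overlapped between all 3 groups.

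**Figure D4:**
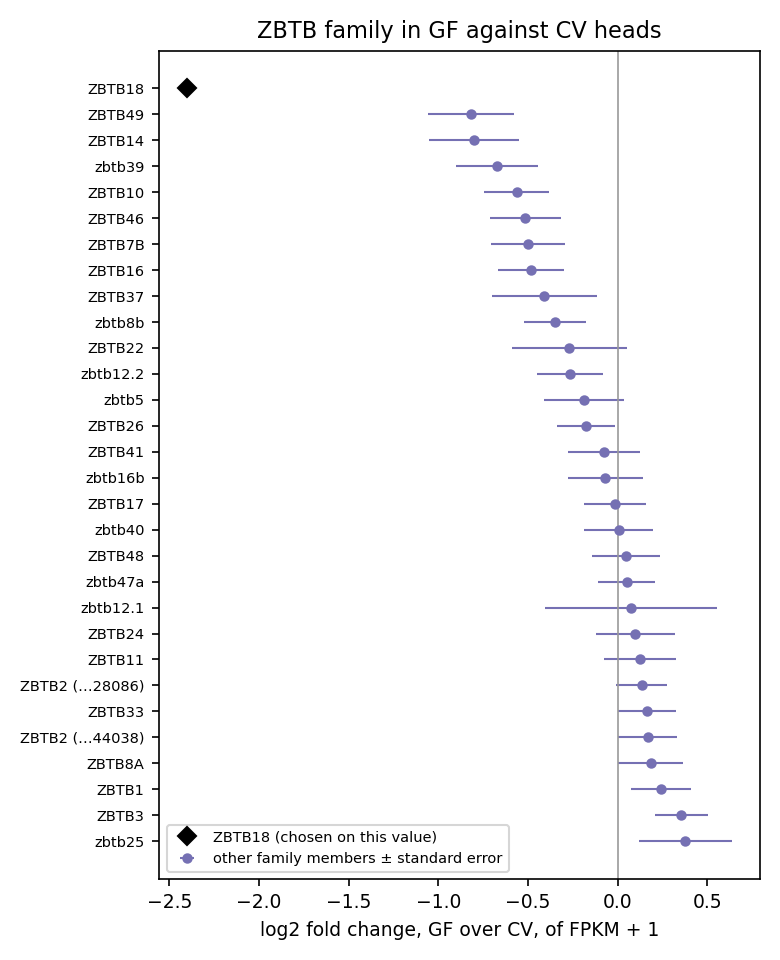
log2 fold change of FPKM + 1 in GF over CV (horizontal axis) for ZBTB18 (diamond, with no error since it was chosen on this value) and the 29 other tested members of the family (circles, with the standard error, SE, from limma). ZBTB18 lies at -2.40, and the other members lie between -0.82 and 0.38.

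The genes whose levels followed ZBTB18 most closely were then listed by Pearson's r over the 9 samples on log2(FPKM + 1). Of the 15903 other genes tested, 15 (0.0943%) had r of at least 0.9 and 22 (0.138%) had r of -0.9 or lower, with a median r of 0.01. The 10 most like it were hgfa (0.95), which encodes the ligand of the Met receptor, cirbpa (0.95), a cold-inducible RNA-binding protein, SAMHD1 (0.94), a nucleotide hydrolase, CERS2 (0.93), a ceramide synthase, and CORO1C (0.92), an actin-binding coronin, followed by ZNF367, POLR1A, HNRNPK, SRF and orc2 (all 0.92). ZNF367 is a zinc finger protein, POLR1A the largest subunit of RNA polymerase I, HNRNPK an RNA-binding protein, SRF the serum response factor and orc2 a subunit of the origin recognition complex. All 10 had lower means in GF than in CV and higher means in ZM than in GF, but by far less than ZBTB18, with log2 differences in GF against CV between -0.97 for SRF and -0.30 for hgfa. The samples on which ZBTB18 was chosen are the ones these correlations use, so the direction of the 10 follows from the choice.

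The abundant RNA-binding protein cirbpa had 1056, 961 and 902 FPKM in ZM, 681, 734 and 710.3 FPKM in GF, and 1029, 981 and 907 FPKM in CV. Its GF samples lay below all others, as for 5.70% of the genes tested, while the ZM and CV samples overlapped. SAMHD1 had 3.12, 2.69 and 2.05 FPKM in ZM, 1.83, 1.61 and 1.22 FPKM in GF, and 3.84, 2.88 and 3.50 FPKM in CV. In SAMHD1, as in ZBTB18, replicate 3 was the lowest sample of ZM and of GF, and the correlation of its deviations from the group means with those of ZBTB18 was 0.83. SRF had 2.58, 2.73 and 2.18 FPKM in ZM, 1.53, 1.43 and 0.996 FPKM in GF, and 3.19, 2.87 and 4.69 FPKM in CV. CORO1C had the highest such correlation within groups among the 10, 0.92, and hgfa the lowest, 0.28. When each sample was left out in turn, r stayed between 0.880 and 0.978 over the 10 genes.

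At a nominal p under 0.05 from limma, 9 of the 10 were lower in GF heads than in CV heads (18% of all genes were), 6 had more RNA in ZM than in GF heads (2.55% of all genes did), and 0 passed the adjusted thresholds. Nothing is read from these counts, since the 10 were selected on their likeness to ZBTB18 in the same samples. Without CV replicate 2, 5 of the 10 (ZNF367, SAMHD1, orc2, SRF and cirbpa) had an adjusted p under 0.05 in GF against CV, and with a pseudocount of 0.1 in place of 1, 4 of the 10 did. Of all 15904 genes tested, 2202 were lower in GF at this threshold without CV replicate 2, and 841 with the pseudocount of 0.1. Which genes stood among the first 10 depended on the settings. By Spearman's rho none of the 10 was shared, with median-of-ratios rescaling, quantile normalization or an FPKM minimum of 5 the number shared was 4, and with 1 sample left out it was between 4 and 7.

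The 5 genes least like ZBTB18 were oclnb (r = -0.95), a tight junction occludin, HRAS (-0.95), a small GTPase, si:dkey-153k10.7 (-0.94), GABARAPL2 (-0.93), a protein of autophagosomes, and si:rp71-1c10.11 (-0.93). All had higher means in GF than in CV, by 0.33 to 0.63 on the log2 scale. GABARAPL2 had 32.3, 33.4 and 45.8 FPKM in ZM, 51.5, 44.5 and 53.1 FPKM in GF, and 34.4, 36.0 and 33.2 FPKM in CV. ZM replicate 3, the ZM pool nearest to GF in ZBTB18, was also the ZM pool nearest to GF in GABARAPL2, a gene picked by its r over these same samples. The occludin gene oclnb averaged 8.71 ± 0.471 FPKM in ZM, 11.5 ± 0.426 FPKM in GF and 8.51 ± 0.184 FPKM in CV (SD, n = 3 each), with all GF samples above all others. All GF samples exceeded all CV samples for 9.14% of the genes tested, and the share with GF above both other groups was not computed. None of the 5 passed an adjusted threshold, and si:rp71-1c10.11 did so in GF against CV without CV replicate 2. In that fit 295 of the 15904 genes tested were higher in GF at this threshold.

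**Figure D5:**
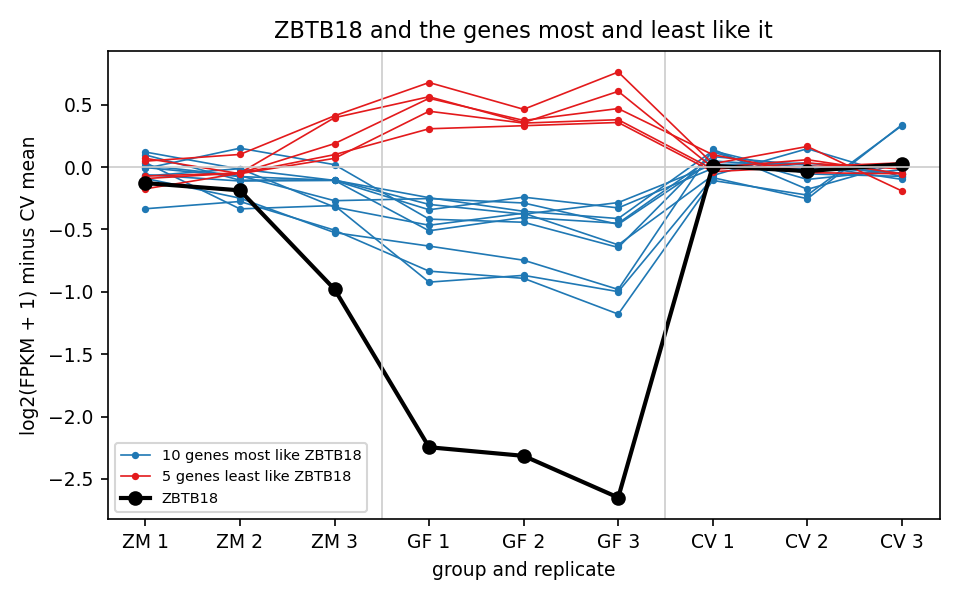
log2(FPKM + 1) minus the mean of the 3 CV samples (vertical axis) in each sample (horizontal axis) for ZBTB18 (black), the 10 genes most like it (blue) and the 5 least like it (red) by Pearson's r. The GF means of the 10 lie 0.30 to 0.97 below CV, against 2.40 for ZBTB18, and the GF means of the 5 lie 0.33 to 0.63 above CV.

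Markers of the cell types in a head were read beside ZBTB18. In GF against CV, the 16 tested markers of mature neurons had a median log2 difference of -0.31, with 2 lower (18% of all genes were) and 0 higher (4.7% of all genes were) at a nominal p under 0.05. The summed level of all 17 matched identifiers, 1 of them untested, was 376 to 537 FPKM in GF and 368 to 512 FPKM in CV. In ZM against GF, all 16 had a lower mean in ZM, as 49.2% of all genes tested did. At a nominal p under 0.05, 7 of them were lower (3.16% of all genes were). The sum of the 17 was 252 to 384 FPKM in ZM and 376 to 537 FPKM in GF, ranges that overlapped slightly. The lower means in ZM were in the opposite direction to ZBTB18. Of the most abundant, NSG2 averaged 79.6 FPKM in ZM and 123 FPKM in GF, and sypa averaged 51.7 FPKM in ZM and 73.8 FPKM in GF. The smallest adjusted p among the 16 was 0.848 from limma, above the threshold of 0.1.

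The 16 tested markers of newborn neurons had a median log2 difference of -0.41 in GF against CV, with 6 lower and 1 higher at a nominal p under 0.05 (18% and 4.7% of all genes were), and 0.10 in ZM against GF, with 2 lower and 0 higher (3.16% and 2.55% of all genes were). The summed level of all 17 matched identifiers, 1 of them untested, was 943 to 1136 FPKM in ZM, 1102 to 1325 FPKM in GF and 1045 to 1285 FPKM in CV. This list shares neurog1 and NEUROD1 with the list of ZBTB18 targets. The 12 markers of neural progenitors had a median of -0.09 in GF against CV, with 4 lower and 0 higher beside the same 18% and 4.7% of all genes, and 0.21 in ZM against GF, with 0 lower and 3 higher beside 3.16% and 2.55%. Their sum was 2037 to 2155 FPKM in ZM, 1691 to 2030 FPKM in GF and 1558 to 1811 FPKM in CV. Correlations with ZBTB18 over the samples went both ways in both lists. Among progenitor markers r ran from -0.58 for a FABP7 copy to 0.83 for nes, with a median of 0.33. Among markers of newborn neurons it ran from -0.85 for a STMN1 copy to 0.86 for EBF2, with a median of 0.20. The FPKM of nes was 9.38, 6.92 and 5.12 in ZM, 5.13, 5.21 and 3.37 in GF, and 8.15, 6.11 and 6.94 in CV. No neural marker passed the adjusted thresholds. The smallest adjusted p in GF against CV was 0.0531 from limma in both lists, close to the threshold. How many markers pass under the other settings was not counted. The sums are weighted toward abundant members. A STMN1 copy averaged 511 FPKM in GF and 370 FPKM in CV, against 36.6 and 105 FPKM for ELAVL3.

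Outside the nervous system, the 9 cartilage markers had the lowest median, -1.28 in GF against CV, with 5 lower and 0 higher at a nominal p under 0.05 (18% and 4.7% of all genes were), and their sum was 112 to 150.3 FPKM in GF and 165 to 409 FPKM in CV. In ZM against GF their median was 0.06, with a sum of 85.7 to 169 FPKM in ZM, so they did not follow ZBTB18 in that comparison. Skeletal muscle, a tissue in which mouse ZBTB18 acts, had a median of -0.16 over 11 markers in GF against CV and 0.01 in ZM against GF, with 0 at a nominal p under 0.05 in either. The muscle sum overlapped between groups, at 6647 to 8583 FPKM in ZM, 5746 to 11284 FPKM in GF and 8683 to 10036 FPKM in CV. The part of these markers in the ZBTB18 result was not tested.

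The remaining lists were retina, lens, skin, erythrocytes, vessels, microglia and macrophages, and organs behind the head. Their median log2 differences in GF against CV lay between -0.46 for 2 markers of microglia and macrophages and 0.35 for 10 lens markers, and their medians in ZM against GF lay between -0.44 for lens and 0.27 for microglia and macrophages. None of their genes passed an adjusted threshold in any comparison, and none had every sample at 0. The sum of the markers of organs behind the head was 151 to 241 FPKM in ZM, 136 to 206 FPKM in GF and 94.2 to 243 FPKM in CV, ranges that overlapped between the groups.

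In the RefSeq annotation of the assembly GRCz12tu, which is not the build the authors used, zbtb18 is on chromosome 13, and its span overlaps the long non-coding RNA LOC141377143. The library kit keeps strand, but whether strand was used for the FPKM is not given in the sources used here, so reads of the 2 genes may not be fully separated. The protein-coding genes next to it are abcg5, dync2li1, cep170aa, sdccag8 and akt3a on one side and adss2, desi2, dctn1b, LOC100150906 and nat8 on the other. By symbol, 8 of these names matched 9 identifiers in the table, and 6 of those were tested. The name dctn1b matched 2 identifiers listed as DCTN1, and which of them is the neighbour was not resolved. The median log2 difference of the 6 tested identifiers in GF against CV was -0.10. At a nominal p under 0.05, 1 was lower, a copy listed as DCTN1 (ENSDARG00000056753) with -0.61 (18% of all genes were lower), and 0 were higher (4.7% of all genes were), and 0 had an adjusted p under 0.05, the smallest being 0.147 from limma. The neighbour ADSS2, an enzyme of AMP synthesis, had 2.82, 4.36 and 4.70 FPKM in ZM, 3.18, 5.33 and 2.96 FPKM in GF, and 2.87, 8.46 and 8.41 FPKM in CV. DESI2, a deSUMOylating peptidase, averaged 21.5 ± 2.34 FPKM in ZM, 21.8 ± 1.19 FPKM in GF and 23.1 ± 3.03 FPKM in CV (SD, n = 3 each). The log2 differences of the 6 tested identifiers in GF against CV lay between -0.61 and 0.19, and the neighbours that were not matched or were under the limit were not compared.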

How the data were processed

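RNA-seq FPKM values of 32520 Ensembl genes were available for 9 samples, 3 each of ZM, GF and CV, grouped by their labels. The authors checked reads with FastQC 0.11.8, mapped them to GRCz11 with HISAT2 2.1.0 and deposited the FPKM estimated by StringTie 1.3.4d. Per the labels, HTSeq 0.11.0 and DESeq2 1.29.13 served the authors' own count analysis. Those counts were not analysed here, and FPKM is unsuited to a count model. The depth behind each FPKM is unknown.

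The 15904 genes whose FPKM averaged at least 1 were fitted on log2(FPKM + 1) with limma 3.58.1 (lmFit, contrasts, eBayes with trend) in R 4.3.3, without rescaling or block, two-sided, with Benjamini-Hochberg adjustment and thresholds of 0.05 (GF against CV, ZM against CV) and 0.1 (ZM against GF). The fit was tested on simulated data. Other values were computed in Python 3.11.15. ZBTB18, the gene lists and the tests were chosen with earlier results of these data known. Genes named were the 10 most and 5 least like ZBTB18, all targets and partners, the 5 family members with the highest level, those with the 3 lowest and 3 highest differences, and neighbours, together with abundant markers. Members counted in the text but outside this rule, OTP, proza, zbtb42, zbtb47a, nes, EBF2, ela2l, fabp10a, hoxa13b and 3 other Hox genes were named after their values were seen. Symbols came from a name table (29201 identifiers with a symbol), and names with a copy letter were matched to every identifier of the same stem, so copies cannot always be told apart. No sequence was used here, so similarity of family members by protein identity was not computed.

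Across genes, deviations from the group means correlated between ZM and GF samples with the same replicate number at 0.409, 0.466 and 0.616. Samples with different replicate numbers were not compared, so whether the numbers pair ZM with GF samples was not tested. For GF and CV they were -0.058, 0.146 and 0.316, and for ZM and CV 0.062, 0.061 and 0.488. Alternatives were a pseudocount of 0.1, FPKM minimums of 5 and above 0, 3 rescalings, a replicate block, eBayes without trend, only the 2 groups compared, and each sample left out.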

Additional observations from a re-analysis of the deposited data

How the results depend on the processing

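The differences of ZBTB18 were recomputed with a pseudocount of 0.1, under the 3 rescalings and with 1 sample left out, and kept their direction. ZBTB18 was chosen on these values and its groups did not overlap, so neither another pseudocount nor leaving out 1 sample could reverse a direction. The FPKM sums of the samples (587431 to 705494) differed far less than ZBTB18 did between GF and the other groups (at least 2.91-fold). Rescaling to an equal sum could therefore not reverse a direction against GF either. With 1 sample left out the differences were -2.48 to -2.28 in GF against CV, 1.82 to 2.25 in ZM against GF and -0.58 to -0.16 in ZM against CV. A pseudocount of 0.1 gave -2.78 in GF against CV. The count of genes past the adjusted threshold was less stable. In GF against CV it was 858 (841 lower) with a pseudocount of 0.1 and 0 when every gene above 0 somewhere was tested, against 1, and 0 to 2497 with 1 sample left out, where 2497 came without CV replicate 2 and 0 without CV replicate 1 or 3 or any GF replicate. In ZM against GF it was 0 with median-of-ratios rescaling, an equal sum, quantile normalization, all genes above 0, eBayes without trend or only the 2 groups compared, and 0 to 1 with 1 sample left out. In ZM against CV it was 0 to 2519, where 2519 came without CV replicate 2. The replicate block left these counts at 1, 1 and 0 and changed no call. The number of ZBTB family members lower in GF at a nominal p under 0.05 was 3 to 9 with 1 sample left out and 4 after quantile normalization, against 7. The causes were not tested. The paper states a range of reads per sample, but the reads behind each value are unknown. The counting error of low values such as those of ZBTB18 in GF was not computed.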
